A study of Mus musculus with 5 samples.

Results

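The small leucine-rich proteoglycans are secreted matrix proteins built on a curved core of leucine-rich repeats, and 10 of their genes (Ogn, Dcn, Lum, Bgn, Fmod, Omd, Prelp, Aspn, Kera and Epyc) were followed among the 20178 RefSeq transcripts measured. The genes were chosen by the low read count of Ogn in the ventral midbrain (VM) library titled C, and the other members were taken as its family. That choice used the same reads that are described here, so the values of Ogn are a description and lend no support to any statement. RNA-seq was read from 5 mouse cultures of the ICR strain, all at passage 2, with 1 library per condition. The VM library came from cultured VM cells of postnatal day 5 pups, labelled astrocyte progenitor cells, with no virus entered. The VM C and VM NF libraries came from the same kind of cells after transduction with lentivirus, from vectors with a CMV promoter. The Ctx library came from cortical cells of the same age and label, and the Ctx NPC library from neural progenitor cells of the cortex of embryonic day 12 embryos. The titles give only the letters C and NF, read here as control virus and as Nurr1 (Nr4a2) with Foxa2. The treatment entries state the reverse, with Nurr1 and Foxa2 for the library titled C and the mock virus for the library titled NF. This reading of the titles is followed below. If the treatment entries hold, each difference between NF and C changes sign, and the comparisons of C and of NF with the VM library exchange places. Whether the cultures were pooled over pups is not given in the sources used here.

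Small leucine-rich proteoglycans bind collagen fibrils and set how thick they grow and how they are spaced. Several also hold growth factors of the TGF-beta family in the matrix or reach receptors on cells. The class I members, Dcn (decorin), Bgn (biglycan) and Aspn (asporin), include decorin and biglycan, which carry chondroitin or dermatan sulphate chains. The class II members Fmod (fibromodulin), Lum (lumican), Kera (keratocan), Omd (osteomodulin) and Prelp include carriers of keratan sulphate. The class III members Ogn (osteoglycin, also called mimecan) and Epyc (epiphycan) have the fewest repeats. In brain most of these genes are best known from the meninges and the cells around vessels.

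The counted reads ranged from 20010818 to 22554835 per library. Levels between libraries are given as CPM, the count scaled to a common number of counted reads, and levels between genes as FPKM, which also divides by transcript length. With 1 library per condition no test of a difference was possible and nothing below is set against a spread between replicates. Intervals are exact 95% intervals of counting error only, because they are computed from the counts of single libraries. PCR copies of a molecule are counted as separate reads, so the intervals may be too narrow even for that error. A transcript was called higher or lower at a 2-fold ratio with FPKM above 1 in at least 1 of the 2 libraries. Foxa2 and Nr4a2 are the genes that NF is read to stand for. Foxa2 had 68 reads in the VM library, 15 in VM C, 216 in VM NF, 1 in Ctx and 0 in Ctx NPC. The reads of Nr4a2 were 81 in VM, 53 in VM C, 183 in VM NF, 106 in Ctx and 93 in Ctx NPC. The library titled NF had the highest count of both genes, but reads of the virus insert and of the cell's own gene cannot be told apart.

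Several marker lists of cell types differed between the libraries as well. All 11 astrocyte markers were read in every library, and their summed level was 2253, 1997, 1955 and 4724 CPM in VM, VM C, VM NF and Ctx. In the Ctx NPC library that sum was 11479 CPM, and the summed oligodendrocyte level was 8003 CPM against at most 440 CPM in the other 4 libraries, so the library did not have the marker profile of progenitors alone. Its summed progenitor level was 6290 CPM, within the range of the astrocyte libraries. Vim, at 3443 CPM, was the largest part of that sum and was called lower than in Ctx (7704 CPM). Hes5 (52.5 and 0.933 CPM) and Fabp7 (1466 and 284 CPM) were called higher in Ctx NPC than in Ctx. The summed neuronal level of Ctx NPC was 1076 CPM, against at most 701 CPM in the other 4 libraries. From VM to VM C, 12 of 13 tested microglial markers and 6 of 8 oligodendrocyte markers were called higher, while 5 of 5 ependymal and choroid plexus markers and 5 of 8 mural markers were called lower. Among fibroblast markers 2 of 15 were called higher and 2 lower, among endothelial markers 2 of 4 higher and 1 lower, among neuronal markers 2 of 5 higher, among astrocyte markers 1 of 11 in each direction, and among progenitor markers 1 of 7 lower. Over all transcripts tested in VM C against VM, 7.3% were called higher and 8.48% lower. The part that the cell types of these lists had in the results below was not tested. In these bulk libraries fewer cells of a type and less RNA per cell cannot be told apart, for the members as for the lists.

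The members lie in 4 places in the mouse genome (GRCm38.p6, RefSeq). Chromosome 10 holds 4 of them in the order Dcn, Lum, Kera and Epyc, from 97479500 to 97681908. The gaps between these neighbours are 47.3, 34.3 and 30.4 kb. Chromosome 13 holds Aspn, Omd and Ogn, from 49544443 to 49624501, with gaps of 14.9 and 15.4 kb. This second cluster lies inside the span of Cenpp (49464025 to 49652950, minus strand), a centromere protein gene on the opposite strand. Overlaps of exons were taken from the GENCODE annotation, for the model of each counted transcript only. No exon of these models of Ogn or Omd overlaps an exon of another gene, whereas Aspn shares 7 bases with Cenpp. Chromosome 1 holds Prelp (133910304 to 133930102) and Fmod (134037254 to 134048280), and Optc, a related gene, ends 615 bases before Prelp. Bgn stands alone on chromosome X (73483601 to 73495936). In the same GENCODE models, exons of the antisense gene Gm15851 cover 9.68% of the exon bases of Prelp. Those of the long non-coding RNA Gm10754 cover 28.3% of the exon bases of Epyc. The strand setting of the counting is not given in the sources used here, so reads from these opposite-strand exons cannot be told apart from the members' own.

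RefSeq promoter windows, the 250 bases before an annotated start, were found for 8 of the 10 members. Dcn and Lum were not matched. The windows of the 4 members that were lower in VM C and of Bgn, the most abundant member, are shown. Bgn was close to level over the VM libraries. Capitals mark matches to 5 motifs, each searched on both strands. The TATA motif was spelled TATAAA. The box bound by the factor NF-Y was spelled with the letters CCAAT. The box bound by Sp1, called the GC box below, was spelled with the letters GGGCGG. The site bound by AP-1 was spelled with the letters TGANTCA, and the NF-kB consensus was the fifth.
Ogn, chr13:49607765-49608014, plus strand: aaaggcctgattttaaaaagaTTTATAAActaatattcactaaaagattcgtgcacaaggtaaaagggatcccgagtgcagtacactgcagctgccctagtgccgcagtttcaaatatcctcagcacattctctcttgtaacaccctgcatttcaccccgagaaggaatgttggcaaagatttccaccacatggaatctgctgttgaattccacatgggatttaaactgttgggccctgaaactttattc
Omd, chr13:49582212-49582461, plus strand: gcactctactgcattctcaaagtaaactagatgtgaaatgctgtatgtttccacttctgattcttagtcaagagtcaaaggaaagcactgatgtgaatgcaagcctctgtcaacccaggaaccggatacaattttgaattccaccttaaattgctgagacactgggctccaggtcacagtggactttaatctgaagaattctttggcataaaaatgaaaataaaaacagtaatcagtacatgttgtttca
Fmod, chr1:134037004-134037253, plus strand: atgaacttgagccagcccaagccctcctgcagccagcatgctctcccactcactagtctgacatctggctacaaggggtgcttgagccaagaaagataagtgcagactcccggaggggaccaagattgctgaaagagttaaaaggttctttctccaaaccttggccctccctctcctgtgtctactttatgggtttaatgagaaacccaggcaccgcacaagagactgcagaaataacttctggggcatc
Prelp, chr1:133921402-133921651, minus strand: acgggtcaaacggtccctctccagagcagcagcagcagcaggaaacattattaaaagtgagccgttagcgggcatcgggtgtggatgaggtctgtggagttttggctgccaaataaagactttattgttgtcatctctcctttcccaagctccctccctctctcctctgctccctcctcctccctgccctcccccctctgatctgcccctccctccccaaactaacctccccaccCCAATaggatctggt
Bgn, chrX:73483351-73483600, plus strand: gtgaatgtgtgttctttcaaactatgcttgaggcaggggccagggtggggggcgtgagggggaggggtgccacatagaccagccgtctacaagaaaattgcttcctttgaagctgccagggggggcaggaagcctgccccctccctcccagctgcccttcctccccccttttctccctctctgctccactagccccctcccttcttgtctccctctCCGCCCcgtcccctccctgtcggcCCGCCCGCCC
The Ogn window holds a pair of overlapping TATA box matches between 229 and 222 bases before the start, farther upstream than a TATA box usually lies. The Prelp window holds a CCAAT match at 15 to 11 bases before the start. GENCODE places the start of the counted Prelp transcript at 133921414, whereas the window was placed before 133921401. Part of that match thus lies in an exon of the GENCODE model. For Ogn the GENCODE start is 49608046, whereas the window was placed before 49608015. The Bgn window holds 3 GC box matches, at 34 to 29, 10 to 5 and 6 to 1 bases before the start, and the last 2 overlap each other. The Omd and Fmod windows hold no match to any of these letters, which says nothing about the factors. Of all 32851 windows of this length, 12.4% hold a TATA box match, 33.8% a CCAAT match, 32.7% a GC box match, 6.75% an AP-1 match and 7.25% an NF-kB match. The G and C content of the windows was 42% for Ogn, 38.4% for Omd, 51.2% for Fmod, 55.6% for Prelp and 64.4% for Bgn, beside a median of 52.4% over all windows. Of the windows not shown, Aspn had 30%, Kera 42.4% and Epyc 39.2% and 31.2%. The Ogn and Omd windows lie inside the Cenpp span. The Prelp window lies inside the span of Prelp itself, whose annotated span has a start farther upstream.

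Ogn, osteoglycin, a matrix protein first taken from bone, had 2032 reads in the VM library, 124 in VM C, 2394 in VM NF, 5719 in Ctx and 324 in Ctx NPC. These counts are levels of 95.4 CPM (interval 91.3 to 99.6), 5.50 CPM (4.57 to 6.55), 118 CPM (113 to 123), 267 CPM (260 to 274) and 16.2 CPM (14.5 to 18.1). VM C was the lowest of the 5 libraries, but Ogn was also low in Ctx NPC, so the low level was not limited to VM C. Among the 4 astrocyte libraries VM C alone was low, and no pair of neighbours in the order of levels had overlapping intervals. The ratio of VM to VM C was 17.4-fold (14.5 to 21.0), a log2 difference of -4.11 for VM C minus VM. Cenpp, whose span contains Ogn, had 70, 75, 51, 40 and 53 reads in the same order of libraries, without a drop in VM C.

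Omd, osteomodulin, is the neighbour of Ogn and was read at a low level. It had 43 reads in VM, 1 in VM C, 25 in VM NF, 55 in Ctx and 3 in Ctx NPC. VM C and Ctx NPC were low for Omd as they were for Ogn, and their intervals overlapped. The interval of VM overlapped those of Ctx and of VM NF. The log2 difference of VM C minus VM was -4.93, and because it rests on 1 read the counting interval of the VM to VM C ratio ran from 7.75-fold to 1840-fold. With 5 reads added in place of 0.5 the difference was -3.04. The FPKM of Omd was 1.15 in VM, just above the limit of 1, and 0.700 in VM NF, just under it. Aspn, the third member of the cluster, had 2, 2, 0, 0 and 2 reads, at or under the floor of 3 reads, and no ratio is given for it. Ecm2, the leucine-rich relative on the other side of Aspn, had 58, 66, 39, 36 and 33 reads, an FPKM under 1 in every library.

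Fmod, fibromodulin, which binds type I collagen, had 1915 reads in VM, 313 in VM C, 2252 in VM NF, 4659 in Ctx and 13 in Ctx NPC. The levels were 89.9, 13.9, 111, 217 and 0.650 CPM. Ctx was the highest library and VM C the lowest of the astrocyte libraries, as for Ogn, and Ctx NPC was far under all of them. The ratio of VM to VM C was 6.48-fold (5.75 to 7.32). Prelp, whose basic start region binds heparan sulphate, had 10185 reads in VM, 4229 in VM C, 11809 in VM NF, 2279 in Ctx and 108 in Ctx NPC, or 478, 187, 581, 106 and 5.40 CPM. Prelp was lower in VM C than in VM by 2.55-fold (2.46 to 2.64), but unlike Ogn and Fmod its lowest astrocyte library was Ctx.

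Dcn, Lum and Epyc of the chromosome 10 cluster had the opposite order within the VM libraries. Dcn, decorin, which binds collagen and TGF-beta, had 1551 reads in VM, 2583 in VM C, 1213 in VM NF, 122 in Ctx and 180 in Ctx NPC, or 72.8, 115, 59.6, 5.69 and 9.0 CPM. Lum, lumican, was at 9.86 CPM in VM, 14.4 in VM C, 7.97 in VM NF, 1.26 in Ctx and 5.25 in Ctx NPC. Epyc, epiphycan, known from cartilage, had 10, 39, 8, 5 and 2 reads. VM C was the highest library for all 3 genes, and no interval of VM C overlapped one of another library for any of them. The log2 differences of VM C minus VM were 0.65 for Dcn, 0.55 for Lum and 1.83 for Epyc. None of the 3 was called, since Dcn and Lum were under 2-fold and Epyc reached an FPKM of 0.999 in VM C, just under the limit. Kera, keratocan, known from the cornea, lies between Lum and Epyc and had 0 reads in every library. The floor of 3 reads is a level of 0.150 CPM in the shallowest library.

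Bgn, biglycan, a ligand of the receptors Tlr2 and Tlr4, was the most abundant member in every library by FPKM. It had 24245 reads in VM, 24158 in VM C, 25864 in VM NF, 10073 in Ctx and 2239 in Ctx NPC, or 1138, 1071, 1272, 470 and 112 CPM. The 3 VM libraries lay close together, with a log2 difference of -0.09 for VM C minus VM, and Ctx and Ctx NPC lay under them. By FPKM it ranked 79 among all transcripts in VM, 78 in VM C, 58 in VM NF, 263 in Ctx and 1897 in Ctx NPC.

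**Figure D1:**
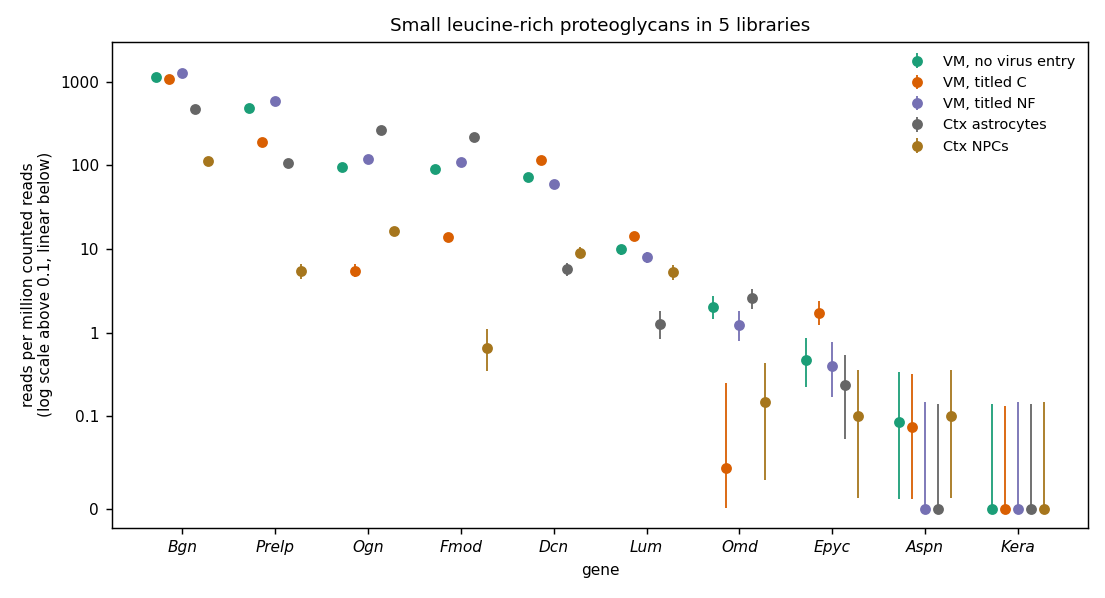
Levels of the members in the 5 libraries, in CPM on an axis that is log above 0.1 and linear below it, with exact 95% counting intervals (for 0 reads, the line ends at 3 reads). Ogn, Fmod and Omd are lowest among the astrocyte libraries in VM C, Dcn, Lum and Epyc are highest there, and Bgn is close to level over the 3 VM libraries, while Kera has 0 reads throughout.

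The make-up of the family followed from these levels. The summed FPKM of the 10 genes was 714 in VM, 568 in VM C, 805 in VM NF, 409 in Ctx and 61.6 in Ctx NPC. Their reads were 0.189% of the VM library, 0.141% of VM C, 0.215% of VM NF, 0.107% of Ctx and 0.0149% of Ctx NPC. Bgn held 65.5% of the summed FPKM in VM, 77.6% in VM C, 65.0% in VM NF, 47.3% in Ctx and 74.8% in Ctx NPC. The share of Ogn was 5.24% in VM, 0.380% in VM C, 5.74% in VM NF, 25.6% in Ctx and 10.3% in Ctx NPC, where it ranked second. Prelp ranked second in VM and VM NF, with 18.6% in VM, whereas Dcn ranked second in VM C with 10.6%. Without Bgn the summed level of the other 9 genes was 749 CPM in VM, 338 in VM C, 878 in VM NF, 600 in Ctx and 36.8 in Ctx NPC. Between 5 and 7 members passed an FPKM of 1 in any library.

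**Figure D2:**
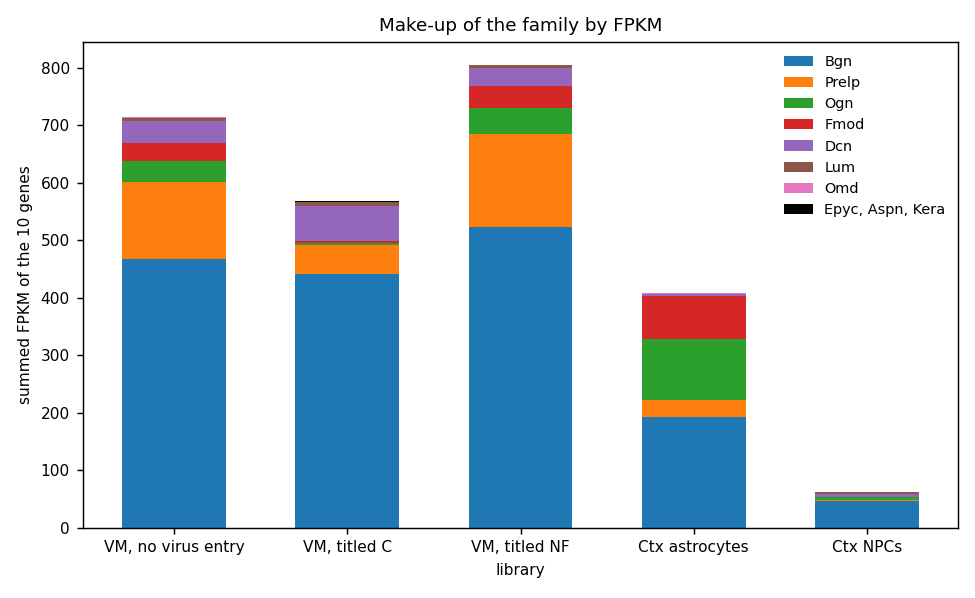
FPKM of the members stacked to their sum (y axis) for each of the 5 libraries (x axis). Bgn takes between 47.3% and 77.6% of a bar, Prelp is the second largest block in VM and VM NF and Ogn in Ctx, and the block of Ogn in VM C is 0.380% of its bar.

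In the VM library titled C against the VM library, 4 of the 10 members were called lower and 0 higher, of 7 tested. Over all 12703 transcripts tested, 8.48% were called lower and 7.3% higher. The choice of the family rests on Ogn in VM C. The count and the median below, which include Ogn, are given beside the background and nothing is read from them. The members called were Ogn, Omd, Fmod and Prelp, and the members tested had a median log2 difference of -1.35 beside -0.01 over all transcripts. The 4 genes belong to class II and class III and lie on chromosomes 13 and 1, and the members of chromosome 10 that could be tested had positive differences. Both classes also hold a gene that went the other way, Lum of class II (0.55) and Epyc of class III (1.83, not tested). Beside these values, the summed level of 20 fibroblast markers was 2714 CPM in VM, 1919 in VM C and 2841 in VM NF. Col1a1 (1274 CPM in VM, 622 in VM C) and Col1a2 (714 and 378 CPM) carried the lower sum of VM C, whereas 9 of the 15 tested markers of the list were above 0 with a median log2 difference of 0.28, among them Pdgfra (79.4 and 186 CPM) and Col3a1 (260 and 362 CPM). Slc22a6 of that list had 1 read in VM and 0 in VM C, under the floor in both. The summed level of 7 ependymal and choroid plexus markers was 372, 66.3 and 344 CPM in the same libraries, with no marker at 0 in these 3. It was 486 CPM in Ctx, of which Foxj1 made up 466 CPM and where Tmem212 and Ttr were at 0, and 136 CPM in Ctx NPC. The summed level of 10 mural markers was 2597, 1533 and 2280 CPM in the VM libraries.

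In VM NF against VM C, 3 of the 10 members were called higher and 0 lower, of 6 tested, beside 9.53% and 9.73% of all 12701 transcripts tested. Ogn was 21.4-fold higher (17.9 to 25.9) in VM NF, Fmod 7.98-fold (7.09 to 9.01) and Prelp 3.10-fold (2.99 to 3.21). Among the tested members Dcn was nearest to a call in the other direction, with 1.92-fold more in VM C (1.79 to 2.06). Epyc, which was not tested because its FPKM of 0.999 missed the limit, had 4.40-fold more in VM C (2.03 to 10.9). The log2 difference was -0.85 for Lum and 0.25 for Bgn, and the members tested had a median of 0.94 beside -0.02 over all transcripts. The count and the median include Ogn, on whose low level in VM C the family was chosen, so nothing is read from them. This comparison and the last share the VM C library, so they are not independent of each other.

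Between VM NF and the VM library, which do not include VM C, none of the 7 tested members was called in either direction, beside 0.322% of all 12428 transcripts called higher and 0.668% lower. The log2 differences of VM NF minus VM ran from -0.70 for Omd to 0.30 for Ogn, and the median was 0.16 beside -0.05. Ogn was 1.23-fold higher (1.16 to 1.31), Fmod 1.23-fold (1.16 to 1.31) and Prelp 1.21-fold (1.18 to 1.25) in VM NF. The interval for Omd, from 0.356-fold to 1.02-fold, included no difference.

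**Figure D3:**
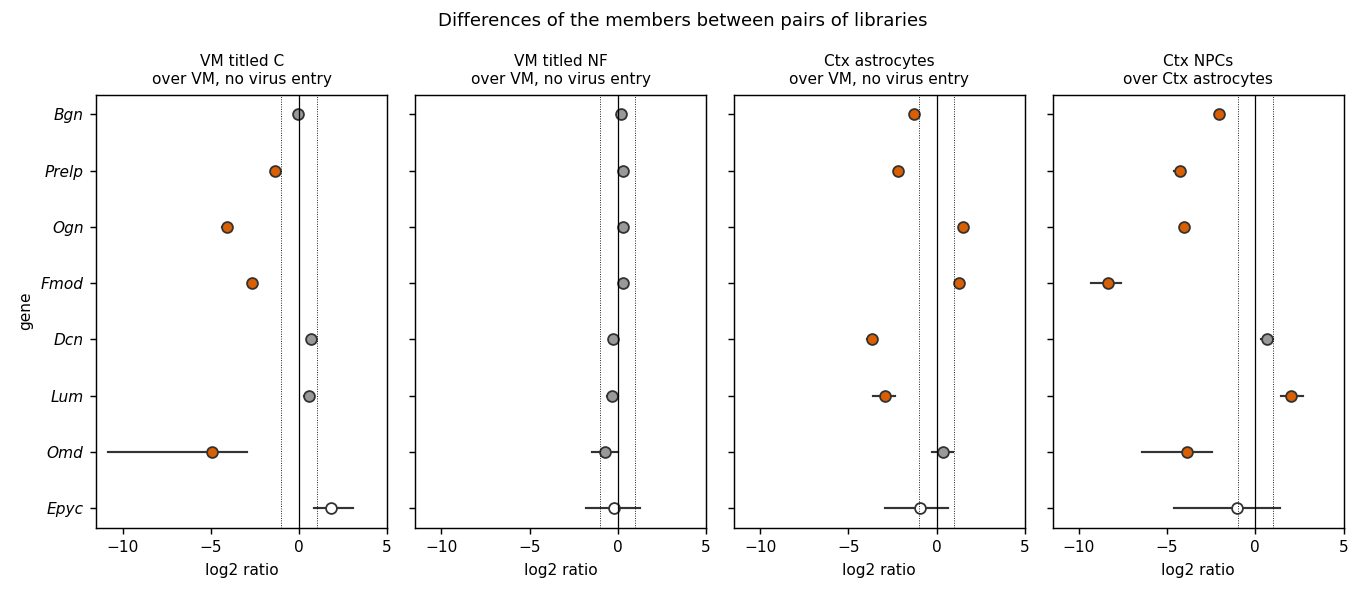
Log2 ratios of the members (x axis) in 4 comparisons, with exact 95% counting intervals, dotted lines at 2-fold, orange points for calls, grey points for members tested and not called, and white points where FPKM was not above 1 in either library. Genes with 3 or fewer reads in both libraries are not drawn. Ogn is at -4.11 in VM C against VM, 0.30 in VM NF against VM, 1.48 in Ctx against VM and -4.04 in Ctx NPC against Ctx.

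Between the regions, in Ctx against VM astrocytes, 2 members were called higher and 4 lower in Ctx, of 7 tested. Over all 12553 transcripts tested, 4.49% were called higher and 9.89% lower. Ogn was 2.80-fold higher (2.66 to 2.94) and Fmod 2.42-fold (2.29 to 2.55) in Ctx. Dcn was 12.8-fold lower (10.6 to 15.5), Lum 7.83-fold (5.23 to 12.2), Prelp 4.50-fold (4.30 to 4.71) and Bgn 2.42-fold (2.37 to 2.48). Neighbouring genes of chromosome 1 thus differed in direction, with Fmod higher and Prelp lower, while Dcn and Lum of chromosome 10 were lower together. Omd, at 55 against 43 reads, had an interval from 0.837-fold to 1.94-fold. Beside these values, 9 of 15 tested fibroblast markers were called lower in Ctx, and the summed level of that list was 1007 CPM in Ctx and 2714 CPM in VM. The list has 20 genes, of which 3 are collagens also counted among the fibril partners below. Of the tested markers of other cell types, 10 of 11 microglial (summed level 142 CPM in Ctx and 345 in VM), 3 of 4 endothelial (32.0 and 73.0 CPM), 3 of 6 oligodendrocyte (321 and 282 CPM) and 2 of 8 mural markers (1703 and 2597 CPM) were also called lower in Ctx. Of the ependymal and choroid plexus markers 1 of 5 was called lower, Ttr, with 953 reads in VM and 0 in Ctx. Astrocyte markers were called higher in 6 of 11 cases and lower in 0.

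In Ctx NPC against Ctx astrocytes, 1 member was called higher and 5 lower, of 7 tested. Over all 12623 transcripts tested, 20.1% were called higher and 17.9% lower. Fmod was 335-fold lower (195 to 629) in Ctx NPC, Prelp 19.7-fold (16.2 to 24.1), Omd 17.1-fold (5.56 to 85.5), Ogn 16.5-fold (14.7 to 18.5) and Bgn 4.20-fold (4.01 to 4.40). Lum was 4.17-fold higher (2.71 to 6.62) and Dcn 1.58-fold (1.25 to 2.01). The members tested had a median log2 difference of -3.90 beside 0.19 over all transcripts. Scaling by edgeR, DESeq2 or the upper quartile moved the median of all transcripts in this comparison by between -0.18 and -0.17 on the log2 scale. Beside the lower members, 11 of 14 tested fibroblast markers and 7 of 8 mural markers were called lower in Ctx NPC. The summed fibroblast level was 472 CPM there, and 2 fibroblast markers were called higher. All 9 tested microglial, 4 ependymal and choroid plexus and 2 endothelial markers were also called lower. Higher calls were made for 9 of 9 oligodendrocyte and 7 of 9 neuronal markers, with 1 neuronal marker lower. Of 11 astrocyte markers 4 were called higher and 1 lower, and of 8 progenitor markers 2 higher and 1 lower. The stage, the cell label and the culture differ together between these libraries and cannot be told apart.

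**Figure D4:**
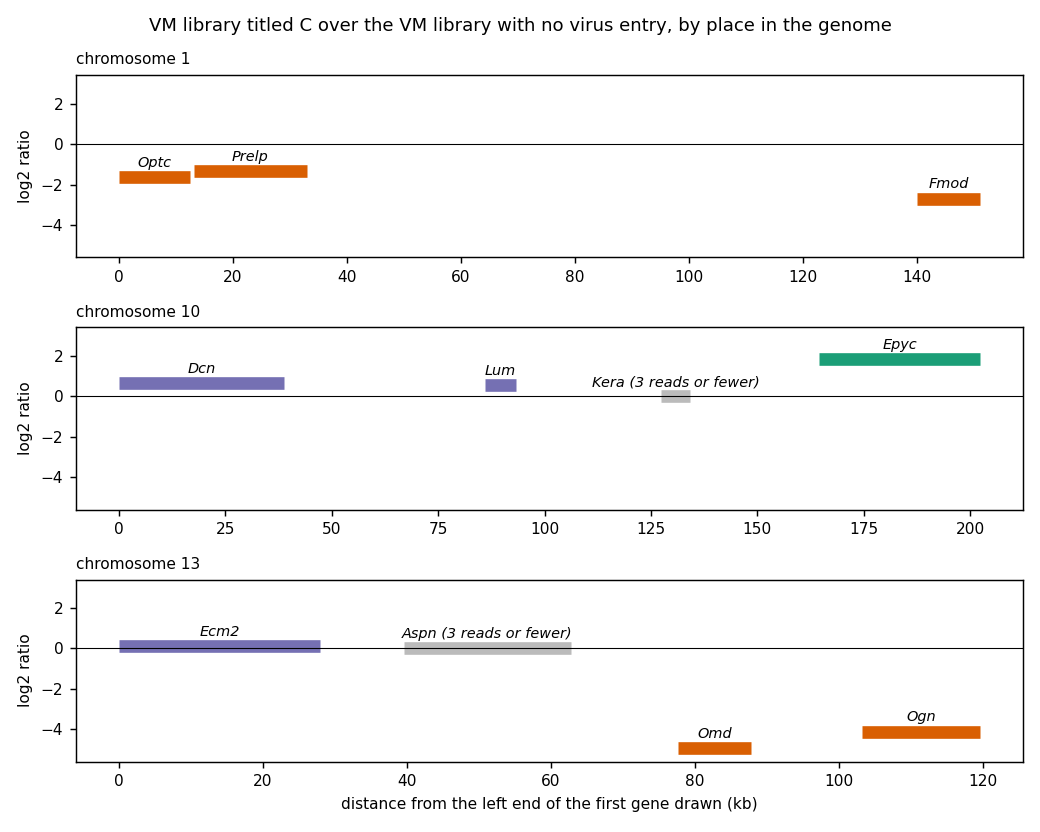
Log2 ratio of VM C to the VM library (y axis) for the members and related neighbours in genome order, against distance in kb from the first gene drawn on each chromosome (x axis). Orange is lower and green higher by 2-fold or more whatever the FPKM, and purple is between. Kera and Aspn, with 3 or fewer reads, are drawn in grey at 0. Omd, Ogn, Prelp and Fmod lie at or under -1.35, and Dcn, Lum and Epyc at or above 0.55.

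The transcripts whose profile over the 5 libraries lay nearest to that of Ogn, by the distance between log2 profiles centred on their mean, were Mal2 (0.58), Car14 (0.79), Cited4 (0.80), Cfap100 (1.19), Cntf (1.29) and Jag2 (1.33) among 11552 transcripts. Cntf, ciliary neurotrophic factor, had 59.8 CPM in VM, 7.71 in VM C, 56.2 in VM NF, 125 in Ctx and 10.6 in Ctx NPC. Cfap100, a cilia and flagella associated protein, had 50.9, 4.08, 56.6, 104 and 3.95 CPM. Mal2, Car14 and Cited4 were at 0.399, 0.621 and 0.532 CPM in VM C, so their profiles rest on few reads there. No other member of the family was among the 6. Omd, Epyc, Aspn and Kera were under 10 CPM in every library, so the limit of the search left them out beforehand. Nearest to Bgn were Rbpms (0.21), Cast (0.25), Adamtsl1 (0.26), Rai14 (0.32), Mvp (0.33) and Myo1c (0.34). A profile over 5 single libraries is a likeness of levels and a description alone.

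The lists of genes that work with these proteoglycans were read in the same comparison of VM C with VM, where the background is again 7.3% higher and 8.48% lower. Genes called within a list are named after their values were seen. Of 8 leucine-rich relatives 4 were tested, and Optc (1.37 CPM in VM C, 4.37 in VM) and Podn (8.96 and 26.2 CPM) were called lower. Tsku, the most abundant relative, had 65.8 CPM in VM C and 92.1 CPM in VM, and Chadl had 5.19 and 4.27 CPM.

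Of the 12 tested fibril partners, the collagens and fibre proteins that these proteoglycans bind or that form the fibrils, 3 were called lower and 0 higher. Eln, elastin, had 3.33 CPM in VM C and 27.6 CPM in VM. Col6a1, a chain of type VI collagen, had 177 and 586 CPM, and Col1a1, a chain of type I collagen, had 622 and 1274 CPM. The list had a median log2 difference of -0.80, and 11 of its 12 tested genes were below 0. Fn1, fibronectin, the most abundant of the list, had 3217 CPM in VM C and 4322 CPM in VM. Col1a2, the other chain of type I collagen, had 378 and 714 CPM. Of the same 12 genes, 7 were called lower in Ctx than in VM and 10 were called lower in Ctx NPC than in Ctx, beside 9.89% and 17.9% of all transcripts tested in those comparisons. Col12a1 was not analysed here.

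Of 23 tested enzymes that build or sulphate the sugar chains, 4 were called higher and 1 lower. Xylt1, which adds the first xylose of the chain, had 10.3 CPM in VM C and 2.30 CPM in VM. Chst11, a chondroitin sulphotransferase, had 407 and 152 CPM. B3galt6, which adds a galactose of the linker, had 16.8 and 8.26 CPM, and B3gnt7, an enzyme of keratan sulphate chains, had 5.63 and 1.17 CPM. Chst1, a keratan sulphate sulphotransferase, was lower, with 12.6 and 34.3 CPM. B3gat3, which completes the linker, had 49.7 and 67.7 CPM, and Chpf, a chain-extending factor, had 149 and 140 CPM. The median of the list was 0.37, and 18 of 23 were above 0.

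Of 19 tested ligands and receptors, 4 were called higher and 4 lower. The higher genes were Tgfb1 (99.9 CPM in VM C, 45.6 in VM), Tlr2 (179 and 48.9), Tlr4 (44.0 and 10.3) and the collagen receptor chain Itga2 (8.65 and 2.07). Tgfb2 (46.5 and 123 CPM), Tgfb3 (31.6 and 170), the co-receptor Tgfbr3 (27.4 and 57.1) and Bmp4 (3.55 and 51.2) were lower. The 3 most abundant genes of the list were not called, with 2145 and 1858 CPM for the integrin chain Itgb1, 997 and 860 for Ccn2 and 1647 and 1198 for the endocytic receptor Lrp1. The TGF-beta ligands thus moved in both directions. Within the VM libraries Tlr2 and Tlr4 were highest in VM C, as were the microglial markers, whose summed level was 345 CPM in VM, 1296 in VM C and 259 in VM NF. In Ctx that sum was 142 CPM while Tlr2 was at 48.0 CPM and Tlr4 at 11.2 CPM, close to their levels in VM. The part of microglia in these values was not tested.

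Of 9 tested proteases, 3 were called higher and 1 lower. Mmp3, a broad matrix protease, had 90.4 CPM in VM C and 13.5 CPM in VM, Mmp13, a collagenase, had 52.0 and 17.5 CPM, and Adamts1 had 525 and 258 CPM. Mmp2, a gelatinase, was lower, with 194 and 452 CPM. Bmp1, which trims the start of several of these proteoglycans, had 453 and 351 CPM and was not called, nor was Mmp14, a membrane-bound protease, with 230 and 362 CPM.

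**Figure D5:**
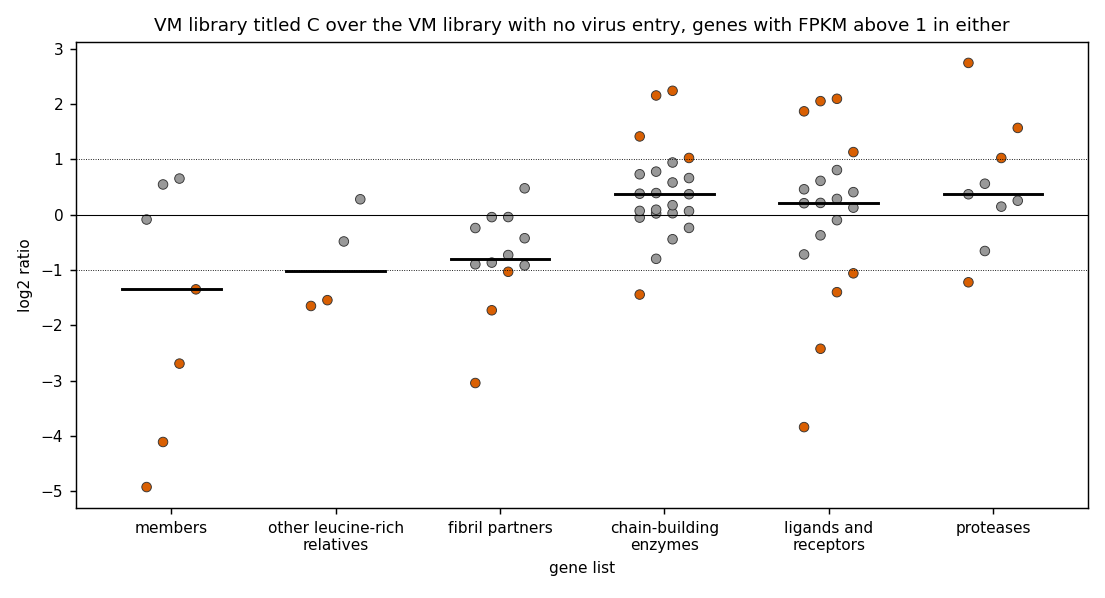
Log2 ratio of VM C to the VM library for the tested members and 5 lists of related genes, 1 point per gene, coloured where called at 2-fold, with the median as a bar. The medians are -1.35 for members, -1.02 for relatives, -0.80 for fibril partners, 0.37 for chain-building enzymes, 0.21 for ligands and receptors and 0.37 for proteases. The median of the members includes Ogn, on whose low level in VM C the family was chosen, so nothing is read from it.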

How the data were processed

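RNA-seq was read in 5 cultures, 1 library each, with no replicates. The authors deposited raw read counts per RefSeq transcript and FPKM, the count over transcript length and library total, which was recomputed from the counts to a relative difference of 4.09e-05. The submitters' processing notes name bcl2fastq 1.8.4, STAR, HTSeq and DESeq with mm9, whereas the study's methods name GRCm38/mm10, so coordinates here are RefSeq positions on GRCm38.p6. A row of total mapped fragments was left out of library sizes. Of 20178 transcripts, 19997 were paired with a symbol through RefSeq accessions and 181 were not.

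Counts were scaled to library totals, 0.5 reads were added in proportion to library size, and log2 ratios were taken with exact (Clopper-Pearson) 95% intervals. Levels carry exact Poisson intervals and a floor of 3 reads. For a count of 0 the upper end was set at that floor and is not an exact limit. A call needed 2-fold with FPKM above 1 in at least 1 of the 2 libraries. Python 3.11.15, scipy 1.17.1, pandas 2.3.3, edgeR 4.0.16 and DESeq2 1.42.0 (scaling factors only) were used. The code for the ratios and intervals was run on simulated Poisson counts, with 4-fold changes placed in well-read transcripts only. That run checks the code alone, since it held no FPKM limit, no changes at low counts and no variation between cultures. The members, gene lists and calling rule were chosen with earlier results of these data known. Every member was named, with Foxa2, Nr4a2, Cenpp and the related genome neighbours Ecm2 and Optc. Other adjacent protein-coding genes were not named. Also named were the 3 most abundant genes of each pathway list and the genes called in VM C against VM. The 6 transcripts nearest to Ogn and to Bgn were taken among those with CPM of at least 10 in at least 1 library.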

Additional observations from a re-analysis of the deposited data

How the results depend on the processing

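Depth and the single library per condition set the limits, since counting intervals leave out the variation between cultures. No paired analysis was possible because each condition has 1 library. Of 120 log2 ratios of members under 3 other scalings, 109 stayed within their counting interval and 11 moved past it, by at most 0.185, and all 80 with 5 or 0 reads added stayed within it. The largest change among those 80 was 1.88, for Omd in VM C against VM, from -4.93 to -3.04 with 5 reads added. No ratio reversed.

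Without the filter on low values, the members called in VM NF against VM C went from 0 to 2 lower and from 3 to 4 higher, those higher in VM C against VM from 0 to 1, those lower in VM NF against VM from 0 to 1, those lower in Ctx against VM from 4 to 5, and those in Ctx NPC against Ctx from 1 to 2 higher and from 5 to 6 lower. The genes added were Omd (higher in VM NF against VM C), Epyc and Aspn, and for Aspn 2 reads stood against 0, under the floor. With FPKM above 1 required in both libraries, Ctx NPC against Ctx had 0 higher and 3 lower, Ctx against VM had 3 lower, and VM C against VM had 3 lower in place of 4, without Omd. At 2.6-fold, VM C against VM had 3 lower, without Prelp, and Ctx against VM had 1 higher and 3 lower. Over all transcripts, removing the filter gave 2388 higher and 2453 lower for VM NF against VM C, 2045 and 2288 for VM C against VM, 759 and 1020 for VM NF against VM, 1319 and 2759 for Ctx against VM, and 3961 lower for Ctx NPC against Ctx. The filter in both libraries gave 687 lower for VM C against VM, 23 higher and 39 lower for VM NF against VM, 755 lower for Ctx against VM and 1460 lower for Ctx NPC against Ctx. At 2.6-fold there were 683 higher and 789 lower for VM NF against VM C, 598 and 648 for VM C against VM, 10 and 24 for VM NF against VM, 279 higher for Ctx against VM and 1618 higher for Ctx NPC against Ctx. These counts changed by the construction of the filter or cutoff. Counts over all transcripts are not listed for every comparison, and the number tested under each setting is not given. No share over all transcripts thus stands beside the member counts of this paragraph, and nothing is read from them. Of the 6 transcripts nearest to Ogn, 2 were kept when CPM of at least 50 was required. That outcome was fixed by the limit, because Mal2, Car14, Cited4 and Jag2 were under 50 CPM in every library.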
